A study of Mus musculus with 4 samples.

Results

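The 32 genes described here code for the enzymes of glycolysis and of the pentose phosphate pathway, with the transporters that carry glucose into the cell and lactate out of it. They were found by gene symbol in a ribosome profiling table of 55573 genes, and 33 rows carried their symbols because Aldoa is listed as 2 gene models. The table held 4 libraries of primary mouse myoblasts, dividing precursors of muscle fibres, which were released by enzymes from the hind limbs of mice aged 3 weeks and collected on day 2 of proliferation. All 4 cultures had received FGF at 10 µg/ml, and cycloheximide at 100 µg/ml held the ribosomes in place before lysis. Of the libraries, 2 were labelled WT and 2 were labelled as an eIF5A knockout (eIF5A-KO). eIF5A is a translation factor that carries hypusine, a residue made from spermidine, and it helps ribosomes pass runs of proline codons. According to the study's text the knockout was made with Pax7-CreERT2 and a floxed eIF5A gene after tamoxifen, so that recombination is limited to satellite cells and their descendants among the cells of the digest. The study's descriptions of the allele carried by the WT mice differ from each other, and the number of animals behind a library was not given in the sources used here. The study describes repeat experiments for this assay, but neither the labels nor its methods say whether the replicates were separate animals or cultures, so every p-value measures only the spread between these libraries, which may be technical.

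Glycolysis splits glucose into pyruvate in the cytosol and yields ATP and NADH. Lactate dehydrogenase turns pyruvate into lactate and restores the NAD that the pathway needs. The pentose phosphate pathway branches off at glucose 6-phosphate, makes NADPH in its oxidative steps and ribose for nucleotides in the others. Dividing myoblasts draw on both routes, whereas muscle fibres carry their own isoforms of several glycolytic enzymes, such as the muscle enolase Eno3 and the muscle phosphoglycerate mutase Pgam2.

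Some facts of the whole series bear on these genes. Between 642429 and 704006 reads per library could be recovered from the deposited values. Protein-coding genes held 41.5% and 33.9% of them in WT libraries 1 and 2, and 65.4% and 59.2% in the libraries labelled eIF5A-KO 1 and 2. The targeted gene Eif5a had 34.9 and 65.2 RPKM (reads scaled by the length of the gene model and by the library size that the authors set) in WT, against 60.3 and 59.4 RPKM under the knockout label. It was not lower there, with a log2 fold change of 0.32 (limma, adjusted p = 0.839), so the groups are called by their labels throughout. The study itself checked the knockout in satellite cells by RT-qPCR, immunostaining and western blot. The summed signal of 9 myoblast markers was 348 and 203 RPKM in WT and 102 and 123 RPKM in the libraries labelled eIF5A-KO, while 8 fibroblast markers summed to 609 and 400 RPKM against 977 and 468 RPKM. The cultures thus held signal of other cells. In such bulk samples fewer cells of a type, less RNA per cell and fewer ribosomes per mRNA cannot be told apart. The study reports that eIF5A controls the translation of Myod (Myod1), one of these markers, while its mRNA level did not differ between groups. The table used here holds ribosome-protected fragments alone. RNA levels of the same cells were not used here, so translation per mRNA was not computed.

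Runs of 3 or more proline codons were looked for first, in the longest annotated coding sequence of each gene. Only Pgam1, Pgam2 and Pgls among the 32 genes held such a run. The stretches around them are shown because eIF5A is known for its role at such codons. The proline codons are in capitals, each stretch reads 5′ to 3′ on the coding strand, and all were taken from the GENCODE M21 transcripts (GRCm38).
Pgam1, coding bases 355 to 384: tatgatgtcCCACCGCCTCCCatggagcct
Pgam2, coding bases 355 to 384: tttgacaccCCACCACCACCCatggatgag
Pgls, coding bases 532 to 561: tccccaaagCCACCACCGcagagggtgacc
The run spans codons 122 to 125 in both phosphoglycerate mutases, and codons 181 to 183 in Pgls.

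No gene of the pathway passed the adjusted threshold. Of the 33 rows, 30 had a mean of at least 1 RPKM and entered the fit with 11363 rows in all. At an adjusted p under 0.05 by limma, the libraries labelled eIF5A-KO had 0 of the 30 lower and 0 higher, where 0.0968% and 0.0088% of all tested genes were called. At an unadjusted p under 0.05 there were also 0 members in either direction, against a background of 4.46% lower and 2.86% higher. limma-voom on the recovered reads called 0 at the adjusted threshold as well. At the unadjusted one it called G6pdx alone, as higher, where 3.91% of all tested genes were called higher and 7.04% lower. The 9 members whose values lay above both WT libraries in both libraries labelled eIF5A-KO made up 30.0% of those tested, against 20.1% of all tested genes. They were Hk2, Pfkl, Pfkp, Tpi1, Pkm, Ldha, Slc16a1, G6pdx and Tkt. In the other direction 4 rows did not overlap, or 13.3% against 20.3% of all tested genes, and these were Pgam1, Pgls, Rpia and the shorter Aldoa model, which had 1 read in each library. The split of 9 higher and 4 lower depended on the scaling between libraries. It was 22 and 0 with all libraries at the same summed RPKM, where 48.2% of all tested genes were higher without overlap. It was 8 and 6 at the same sum over protein-coding genes, where 16.3% and 23.3% of all tested genes were higher and lower without overlap. After quantile normalization it was 14 and 3, where these shares were 22.8% and 17.8%. The log2 fold change was above 0 for 21 of the 30 rows, where 50.0% of all tested genes were above 0. All members are protein-coding, and 5246 of the 9877 tested protein-coding genes were above 0. Of that class 22.4% were higher and 19.3% lower without overlap.

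The median log2 fold change of the members was 0.33, beside 0.00026 for all tested genes and 0.049 for tested protein-coding genes. WT library 1 weighed on this value. Among the 30 rows, 17 had their lowest value in WT library 1 (56.7%, against 33.1% of all tested genes), and 22 were higher in WT library 2 than in WT library 1. The median difference between the WT libraries was 0.45 on the log2 scale for the members and 0.00 for all tested genes, whereas the median difference between the libraries labelled eIF5A-KO was -0.046. Without WT library 1 the median fold change of the members was 0.10. Without WT library 2 it was 0.43. The same library had the lowest summed signal of 8 proliferation markers, at 53.7 RPKM beside 99.1 RPKM in WT library 2. The libraries labelled eIF5A-KO had 125 and 112 RPKM. Pcna held much of the gap between the WT libraries, with 16.6 and 46.0 RPKM. Mki67 alone was higher in WT library 1 than in WT library 2, with 9.23 and 4.22 RPKM. It had 11.4 and 3.81 RPKM in the libraries labelled eIF5A-KO. WT library 1 also had 91.0 RPKM of Myog, a marker of myoblasts that leave the cell cycle. The other libraries had 4.26, 0.737 and 1.66 RPKM of Myog. The part of these markers in the result was not tested.

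**Figure D1:**
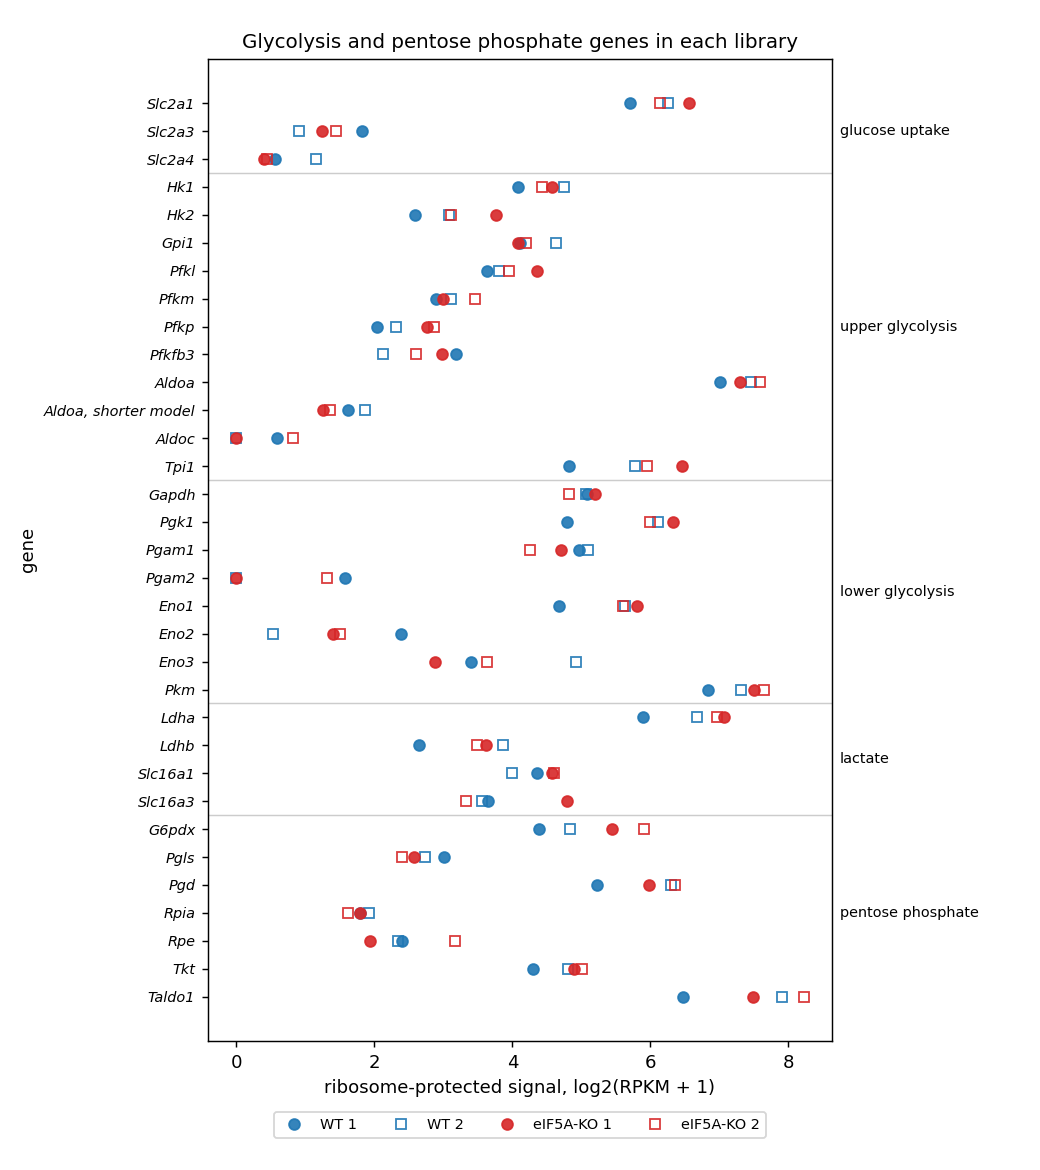
Ribosome-protected signal of each row, as log2(RPKM + 1) on the horizontal axis, in WT libraries 1 and 2 (blue) and in the libraries labelled eIF5A-KO 1 and 2 (red), with genes ordered by their role. WT library 1 holds the lowest point in 17 of the 30 tested rows, among them Pkm at 113 RPKM and Ldha at 58.6 RPKM.

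The members covered a wide range of levels. By mean RPKM over the 4 libraries, which is a level per length of the whole gene model, the highest were Taldo1 (200.4 RPKM), Pkm (163 RPKM), Aldoa (163 RPKM), Ldha (104 RPKM) and Slc2a1 (72.4 RPKM). Ribosomes protect mainly the coding part, and the gene models were between 1.10 and 5.88 times as long as the longest coding sequence. Per kilobase of coding sequence the order was Pkm (510 reads per coding kilobase, scaled by the same library size), Taldo1 (379), Aldoa (377), Ldha (317) and Pgd (285). Taldo1 and Pkm thus changed places with the length used, and their values overlapped between libraries, with Taldo1 between 87.9 and 297 RPKM and Pkm between 113 and 199 RPKM. Gapdh, often used as a reference gene, ranked 11 by gene length and 9 by coding length. Together the members took 0.703% of the reads on protein-coding genes in WT library 1 (95% Wilson interval 0.672 to 0.736) and 1.04% in WT library 2 (1.00 to 1.09). The share was 1.02% (0.987 to 1.05) and 1.12% (1.09 to 1.16) in the libraries labelled eIF5A-KO. WT library 1 stood below the other libraries by more than counting error.

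Glucose uptake rested on Slc2a1, the gene of the broadly expressed transporter GLUT1. Its signal was 51.1 and 75.7 RPKM in WT and 93.4 and 69.6 RPKM in the libraries labelled eIF5A-KO, and the groups overlapped. Slc2a3, a high-affinity glucose transporter, was read at 2.52 and 0.879 RPKM against 1.37 and 1.71 RPKM, on 33 reads in all. Slc2a4, the insulin-responsive transporter of muscle and fat, had 1, 2, 1 and 1 reads and was not tested. Slc2a1 made up between 94.5% and 98.2% of the summed RPKM of the transporters in every library. The log2 fold changes of Slc2a1 and Slc2a3 were 0.37 and -0.021, and without WT library 1 that of Slc2a1 was 0.090.

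In upper glycolysis, which takes glucose to triose phosphate, 8 of 10 tested rows had a log2 fold change above 0 and the median was 0.22. Without WT library 1 the count above 0 was 6 of 10, and without WT library 2 the median was 0.43. Hexokinases trap glucose by phosphorylation. Hk1, the constitutive form, had 15.9 and 25.9 RPKM in WT and 22.9 and 20.6 RPKM in the libraries labelled eIF5A-KO. Hk2, the regulated form of muscle, had 5.00 and 7.47 RPKM against 12.6 and 7.67 RPKM. The groups overlapped in Hk1. In Hk2 they did not, but their nearest values were 7.47 and 7.67 RPKM.

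Phosphofructokinase is the main control point of the pathway and is built from 3 kinds of subunit. The liver-type subunit Pfkl had 11.4 and 13.0 RPKM in WT and 19.5 and 14.5 RPKM in the libraries labelled eIF5A-KO. The platelet-type subunit Pfkp had 3.09 and 3.96 RPKM against 5.76 and 6.28 RPKM. Neither overlapped between groups, with log2 fold changes of 0.43 and 0.64 that did not pass the test. Without eIF5A-KO library 1 that of Pfkl was 0.23. The muscle-type subunit Pfkm had 6.46 and 7.63 RPKM against 6.93 and 10.0 RPKM, and these values overlapped. Pfkfb3, whose product makes the phosphofructokinase activator fructose 2,6-bisphosphate, differed between the WT libraries (8.12 and 3.37 RPKM) and had 6.85 and 5.08 RPKM in the others.

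Tpi1 had the highest log2 fold change of the upper steps. It codes for triose phosphate isomerase and lies on chromosome 6 (124810586 to 124814296, minus strand, 7 exons). Its signal was 27.1 and 54.0 RPKM in WT and 86.9 and 60.7 RPKM in the libraries labelled eIF5A-KO, with means of 40.5 ± 19.0 and 73.8 ± 18.5 RPKM (SD, n = 2). The groups did not overlap, and a log2 fold change of 0.91 with an SE of 0.52 did not pass the test (limma, adjusted p = 0.697). Without WT library 1 it was 0.42.

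Gpi1, glucose phosphate isomerase, was among the 5 lowest (chromosome 7, 34201330 to 34230336, minus strand, 18 exons). It had 16.2 and 23.7 RPKM in WT and 15.9 and 17.3 RPKM in the libraries labelled eIF5A-KO. The values overlapped, and WT library 2 alone stood higher. Its log2 fold change was -0.23 with an SE of 0.41 (limma, adjusted p = 0.862), and it turned to 0.031 without WT library 2. A noncoding gene on the opposite strand covers 11.5% of its exonic bases.

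Aldolase, which splits the hexose, was read almost wholly from Aldoa. The main Aldoa row had 127 and 175 RPKM in WT and 156 and 192 RPKM in the libraries labelled eIF5A-KO, which overlapped. Aldoc, the brain form, had 1, 0, 0 and 2 reads and was not tested. In the libraries at 0, a count of 0 allows up to 1.95 RPKM (WT library 2) and 1.01 RPKM (eIF5A-KO library 1).

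In lower glycolysis, from glyceraldehyde 3-phosphate to pyruvate, the tested genes pointed both ways. The log2 fold change was above 0 for 3 of 7 genes and the median was -0.0083, which with single libraries left out ranged from -0.074 (without WT library 2) to 0.13 (without eIF5A-KO library 2). Gapdh, the dehydrogenase that makes NADH, had 32.9 and 32.4 RPKM in WT and 35.7 and 27.3 RPKM in the libraries labelled eIF5A-KO. The WT values lay between the others, and the log2 fold change was -0.062 with a 95% interval of -1.06 to 0.94. With libraries scaled to the same summed RPKM, it was 0.18 above the median of all tested genes.

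Pgk1, phosphoglycerate kinase, makes the first ATP of the pathway (chromosome X, 106187100 to 106203699, plus strand, 11 exons). Its signal was 26.6 and 68.1 RPKM in WT and 79.1 and 62.9 RPKM in the libraries labelled eIF5A-KO, with means of 47.4 ± 29.3 and 71.0 ± 11.5 RPKM (SD, n = 2). WT library 1 alone was low, and the groups overlapped. A log2 fold change of 0.71 with an SE of 0.57 (limma, adjusted p = 0.721) became 0.050 when WT library 1 was left out.

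Pgam1, the broadly expressed phosphoglycerate mutase and the carrier of the 4 proline codons shown above, went the other way (chromosome 19, 41911923 to 41918660, plus strand, 4 exons). It had 30.1 and 33.2 RPKM in WT and 25.0 and 18.1 RPKM in the libraries labelled eIF5A-KO, with means of 31.7 ± 2.17 and 21.6 ± 4.89 RPKM (SD, n = 2). Both values under the knockout label lay below both WT values. The difference, -0.55 on the log2 scale with an SE of 0.41, did not pass the test (limma, adjusted p = 0.711), and it was -0.33 without eIF5A-KO library 2. The muscle mutase Pgam2, with the same run of prolines, had 1, 0, 0 and 1 reads, so its level was not measurable at this depth. A count of 0 there allows up to 7.58 RPKM in WT library 2 and 3.94 RPKM in eIF5A-KO library 1.

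Enolase forms phosphoenolpyruvate. The ubiquitous Eno1 had 24.7 and 48.5 RPKM in WT and 55.1 and 47.4 RPKM in the libraries labelled eIF5A-KO, and these values overlapped. Eno2, the neuronal form, had 4.23 and 0.451 RPKM against 1.64 and 1.84 RPKM on 27 reads. Eno3, the muscle form (chromosome 11, 70657202 to 70662513, plus strand, 12 exons), had the lowest log2 fold change of all members. It had 9.54 and 29.3 RPKM in WT and 6.34 and 11.4 RPKM in the libraries labelled eIF5A-KO, with means of 19.4 ± 14.0 and 8.87 ± 3.57 RPKM (SD, n = 2). The groups overlapped, since WT library 1 lay between the libraries labelled eIF5A-KO, and the counts were 10, 24, 10 and 16 reads. Its log2 fold change was -0.91 with an SE of 0.62 (limma, adjusted p = 0.697). Leaving out WT library 1 gave -1.67, and leaving out WT library 2 gave -0.14.

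Pkm, pyruvate kinase, makes the last ATP and had the most reads of all members. Its signal was 113 and 158 RPKM in WT and 181 and 199 RPKM in the libraries labelled eIF5A-KO. The groups did not overlap, and the log2 fold change was 0.50 with a 95% interval of -0.68 to 1.68 (0.26 without WT library 1). A gene model on the same strand covers 15.3% of its exonic bases.

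**Figure D2:**
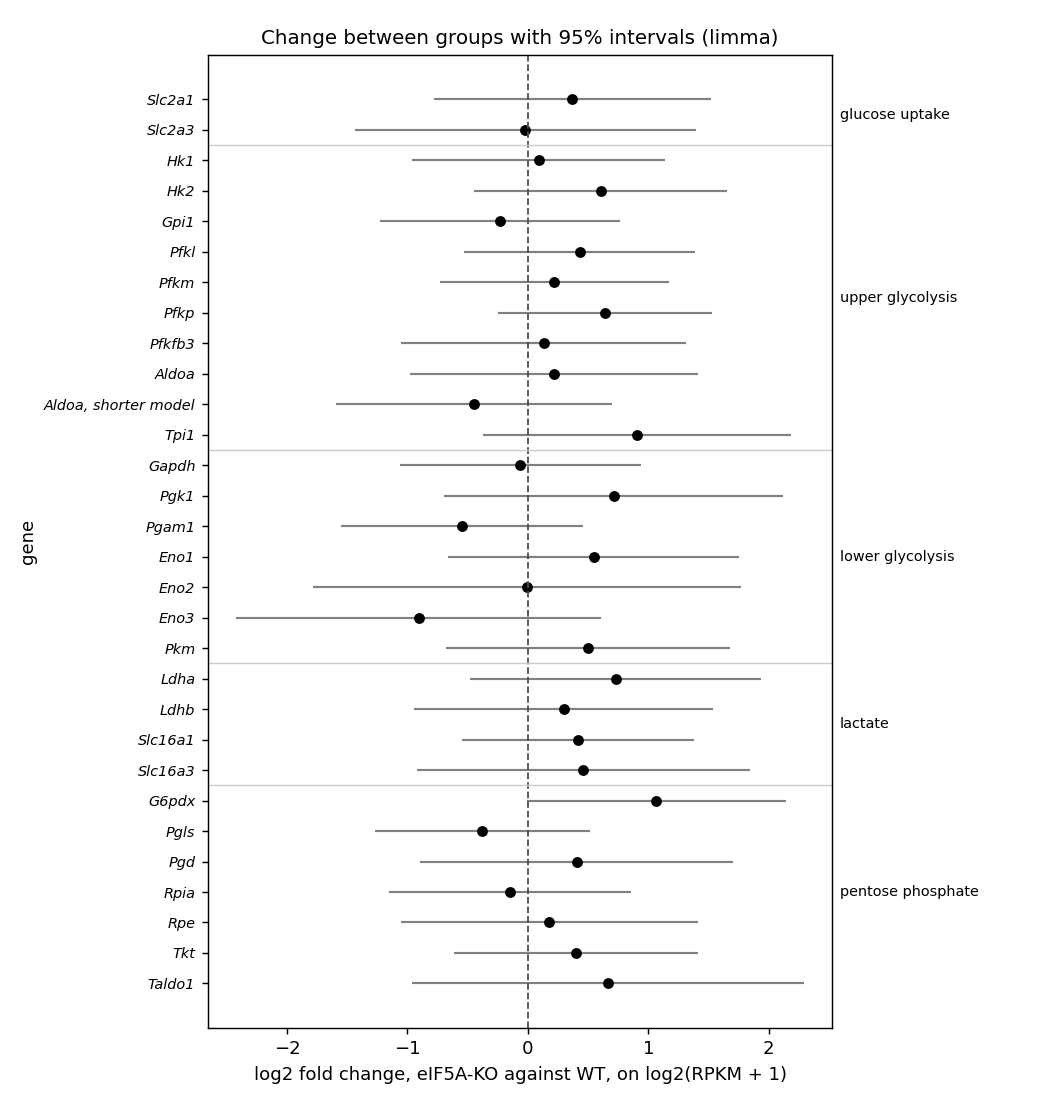
Log2 fold change of the 30 tested rows, libraries labelled eIF5A-KO against WT on log2(RPKM + 1), with 95% intervals from limma (bars). Every interval crosses 0, and the interval of G6pdx starts nearest to it, from -0.0079 to 2.14.

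All 4 genes of lactate handling had a log2 fold change above 0, with a median of 0.44. The median was 0.66 without WT library 2, and 3 of the 4 were above 0 without WT library 1 or without eIF5A-KO library 1. Ldha, the lactate dehydrogenase subunit that prevails in glycolytic tissue (chromosome 7, 46841475 to 46855627, plus strand, 8 exons), had 58.6 and 101 RPKM in WT and 133 and 123 RPKM in the libraries labelled eIF5A-KO. The means were 79.7 ± 29.7 and 128 ± 6.93 RPKM (SD, n = 2), and the groups did not overlap. Ldha had a log2 fold change of 0.73 with an SE of 0.49 (limma, adjusted p = 0.697), which was 0.35 without WT library 1. Ldhb, the heart-type subunit, had 5.28 and 13.5 RPKM against 11.2 and 10.3 RPKM on 44 reads, and these overlapped. Slc16a1 codes for MCT1, a lactate carrier of many tissues. It had 19.5 and 14.9 RPKM in WT and 22.9 and 23.2 RPKM in the libraries labelled eIF5A-KO, which did not overlap. Its log2 fold change was 0.42, and 0.23 without WT library 2. Slc16a3 codes for MCT4, the lactate exporter of glycolytic cells. It had 26.7 RPKM in eIF5A-KO library 1 and between 9.08 and 11.5 RPKM in the other libraries, so that 1 library carried its log2 fold change of 0.46, which was -0.27 without it.

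The pentose phosphate pathway held the member with the highest fold change. G6pdx codes for glucose 6-phosphate dehydrogenase, which opens the pathway and makes NADPH (chromosome X, 74409483 to 74429194, minus strand, 13 exons). Its signal was 19.9 and 27.6 RPKM in WT and 42.6 and 59.1 RPKM in the libraries labelled eIF5A-KO, from 37, 40, 119 and 147 reads. The means were 23.7 ± 5.40 and 50.8 ± 11.7 RPKM (SD, n = 2), a ratio of 2.14, and both libraries under the knockout label lay above both WT libraries. This gave a log2 fold change of 1.07 with an SE of 0.44 and a 95% interval of -0.0079 to 2.14, which did not pass the test (limma, adjusted p = 0.672). It was the only member beyond 1 on this scale in either direction, or 3.33% of the tested members, where 8.15% of all tested genes were that much higher. Leaving out each library in turn gave between 0.83 and 1.30. Ikbkg, on the opposite strand, covers 13.6% of its exonic bases.

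The other oxidative steps did not share this size. Pgls, 6-phosphogluconolactonase (chromosome 8, 71592176 to 71601092, plus strand, 5 exons), had 7.04 and 5.63 RPKM in WT and 4.97 and 4.27 RPKM in the libraries labelled eIF5A-KO. The means were 6.33 ± 0.997 and 4.62 ± 0.497 RPKM (SD, n = 2) on 56 reads, and the groups did not overlap. On the log2 scale the fold change was -0.38 with an SE of 0.36 (limma, adjusted p = 0.737), and -0.24 without WT library 1. Fam129c, on the same strand, covers 20.6% of its exonic bases. Pgd, 6-phosphogluconate dehydrogenase, makes the second NADPH. It had 36.5 and 77.4 RPKM against 61.9 and 80.8 RPKM, and the groups overlapped, with WT library 1 the low value.

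The non-oxidative steps rearrange pentoses. Rpia, ribose 5-phosphate isomerase (chromosome 6, 70765720 to 70792232, minus strand, 9 exons), had 2.48 and 2.77 RPKM in WT and 2.47 and 2.08 RPKM in the libraries labelled eIF5A-KO. These were 8, 7, 12 and 9 reads, and although the groups did not overlap, their nearest values were 2.48 and 2.47 RPKM. The fold change was -0.15 on the log2 scale with an SE of 0.41 (limma, adjusted p = 0.918). It was -0.062 without eIF5A-KO library 2, and with the trend on GC content removed it was 0.046 relative to the median of all tested genes. Rpe, the epimerase, had 4.26 and 4.09 RPKM against 2.83 and 7.95 RPKM on 42 reads, with both WT values between the others. Kansl1l, on the opposite strand, covers 17.9% of its exonic bases.

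Transketolase and transaldolase link the pentoses back to glycolysis. Tkt had 18.7 and 26.8 RPKM in WT and 28.6 and 31.1 RPKM in the libraries labelled eIF5A-KO, without overlap, and a log2 fold change of 0.40 that was 0.15 without WT library 1. Taldo1, transaldolase (chromosome 7, 141392199 to 141402968, plus strand, 9 exons), had 87.9 and 239 RPKM in WT and 178 and 297 RPKM in the libraries labelled eIF5A-KO. Its means were 163 ± 107 and 238 ± 84.0 RPKM (SD, n = 2), the groups overlapped, and replicate 2 was the higher library in each group. Its log2 fold change of 0.66 was as large as its SE of 0.66 (limma, adjusted p = 0.747), and it was -0.051 without WT library 1. Of the 7 genes of the pathway, 5 had a log2 fold change above 0, and the median was 0.40. This rested on WT library 1, without which 3 of the 7 were above 0 and the median was -0.051. It was 0.21 without eIF5A-KO library 2 and 0.65 without WT library 2.

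The makeup of the isoforms was then compared as shares of summed RPKM within a library, which do not depend on the scaling between libraries. With 2 against 2 libraries an exact two-sided permutation test cannot give a p under 0.33. Eno3 took 24.8% and 37.4% of the enolase signal in WT, against 10.0% and 18.8% under the knockout label, a difference of -16.7 percentage points (exact permutation p = 0.33). These shares are weighted by the gene models, of 5379 bases for Eno1 and 1739 for Eno3, although the coding sequence of each enolase has 1305 bases. By recovered reads, which avoid this weighting, Eno3 took 9.80% and 16.2% against 3.50% and 6.99%, a difference of -7.77 percentage points. Hk2 took 23.9% and 22.4% of the hexokinase signal against 35.4% and 27.1% (8.15 percentage points, exact permutation p = 0.33). Ldhb took 8.27% and 11.8% of the lactate dehydrogenase signal against 7.78% and 7.67% (-2.33 percentage points, exact permutation p = 0.33). By recovered reads the Ldhb shares were 4.10% and 5.99% against 3.85% and 3.79%, and those of Hk2 were 18.0% and 16.8% against 27.8% and 20.7%. In these 3 shares the groups did not overlap, although for Ldhb the nearest libraries were 8.27% and 7.78%. Leaving out 1 library moved all 3 differences. Without WT library 2, that of Eno3 was -10.4 and that of Ldhb -0.542 percentage points, and without eIF5A-KO library 1 that of Hk2 was 4.00 percentage points. The 9 myoblast markers, like Eno3, had log2 fold changes below 0, although that of Itga7 was -0.017. In 6 of the 9 the libraries labelled eIF5A-KO lay lower without overlap. Over all tested genes, 50.0% were below 0 and 20.3% were lower without overlap. WT libraries 1 and 2 had a marker sum of 348 and 203 RPKM and an Eno3 signal of 9.54 and 29.3 RPKM. The part of the markers in the Eno3 share was not tested.

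The remaining shares overlapped between the groups. Pfkm took between 21.5% and 32.5% of the phosphofructokinase signal and Pfkl between 47.0% and 60.6%, with eIF5A-KO libraries 1 and 2 at the opposite ends of both ranges. The coding sequences of the 3 subunits have nearly the same length (2343 to 2355 bases) and the gene models do not (3340 to 13401 bases), and by recovered reads Pfkm took between 10.0% and 15.6%. Slc16a3 ranged from 28.1% to 53.9% of the monocarboxylate transporters, again with the libraries labelled eIF5A-KO at the ends. The pentose phosphate enzymes took 22.4% and 29.8% of the signal of all members in WT, against 24.2% and 33.9% under the knockout label. The difference of 2.96 percentage points was smaller than the spread within either group (SD 5.26 and 6.83, n = 2).

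**Figure D3:**
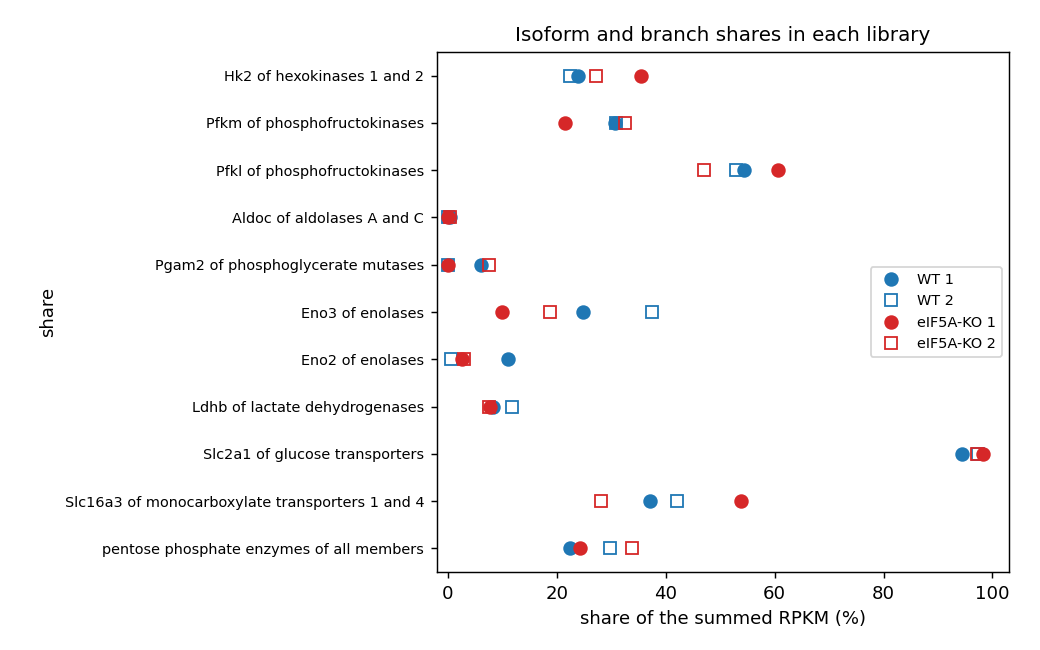
Share of the summed RPKM (horizontal axis, %) that each isoform or branch took in WT libraries 1 and 2 (blue) and in the libraries labelled eIF5A-KO 1 and 2 (red). Eno3, at 24.8% and 37.4% against 10.0% and 18.8%, Hk2 and Ldhb are the shares without overlap.

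Glycolytic genes have many processed pseudogenes, and a fragment of about the length that a ribosome protects can match several of them. The coding sequences were therefore cut into all windows of 30 bases, and each window was looked for in the transcripts of every other gene of GENCODE M21. Of the 33 rows, 20 held no window in common with another gene, among them Hk1, Hk2, Pfkl, Pfkp, Eno3, Pgd and Tkt. The other 13 shared windows. All windows of Pgk1 and Pgam1 recurred in another gene, as did 94.3% of those of Gapdh, 89.9% of Eno1 and 78.3% of Pkm. The share was 58.9% for Ldha, 57.9% for Gpi1, 55.2% for Ldhb and 43.2% for Aldoa. For Tpi1, Taldo1 and G6pdx it was 33.1%, 27.6% and 24.3%, and for Slc2a1 5.24%.

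Gapdh shared windows with 341 genes, of which 329 are annotated as pseudogenes. The Gapdh window held by the most other genes and the first window held by none are shown to set a repeated stretch beside a distinct one. Both are coding bases of the longest coding sequence, which has an extended 5′ end.
Gapdh, bases 494 to 523, in 134 other genes: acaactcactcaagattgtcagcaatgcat
Gapdh, bases 1 to 30, in 0 other genes: atgctgcccttaccccggggtcccagctta
The deposited table placed few reads on these pseudogenes. The 329 of Gapdh held 10, 9, 14 and 9 reads, spread over 14 of them, beside 370 reads on Gapdh. Those of Pgk1 held 4 reads beside 383, and those of Pgam1 held 2 beside 141. The 28 pseudogenes of Ldha held 9 reads beside 1004. Over all members, 415 rows of pseudogenes held 101 reads. How reads with several matches were counted was not given in the sources used here, so the levels of the 13 members with shared windows, Pgk1, Pgam1, Gapdh, Eno1, Pkm, Ldha, Gpi1 and Ldhb most of all, are less certain than those of genes without them.

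**Figure D4:**
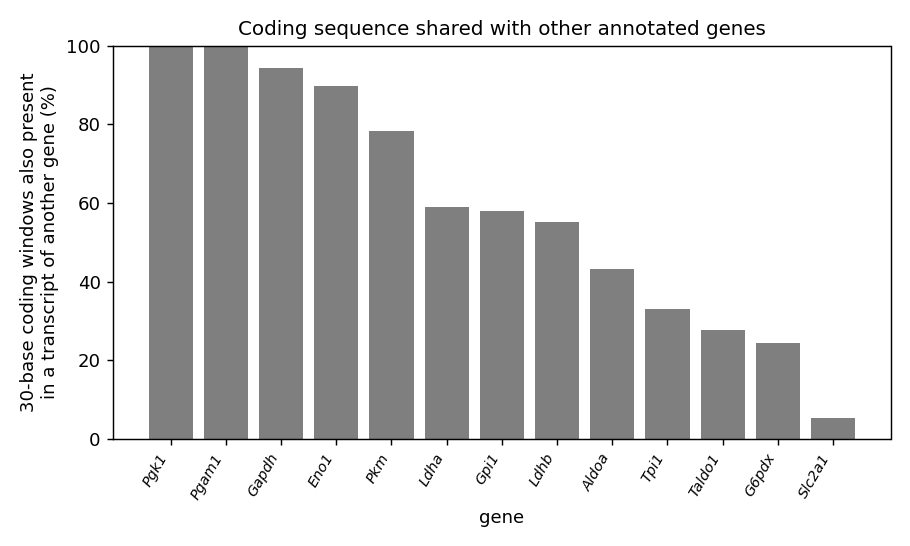
Percentage of the 30-base windows of the coding sequence that also occur in a transcript of another gene (vertical axis), for the 13 members that share any. The bars run from 100% for Pgk1 and Pgam1 to 5.24% for Slc2a1, and the other 20 rows shared none.

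Base composition and proline runs were then set beside the fold changes. The tested members had a median coding GC content of 55.0%, where the 9869 tested protein-coding genes with a coding sequence had 53.1%. Across genes, the Spearman correlation of coding GC content with the log2 fold change was -0.34 over the 30 member rows and -0.36 over the 9869 genes. This is a description across genes of the same 4 libraries, and genes are not replicates. Pgls had the highest GC content of the members, 65.0%. With the GC trend removed in each library, the fold change of Pgls relative to the median of all tested genes was 0.087 on the log2 scale, and that of Pgam1 was -0.40. In that fit 0 members lay below both WT values in both libraries labelled eIF5A-KO, where 18.4% of all tested genes did.

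Runs of 3 or more proline codons were present in 2 of the 30 tested rows (6.67%), against 25.7% of tested protein-coding genes. The 2 genes, Pgam1 and Pgls, both had lower values without overlap in the libraries labelled eIF5A-KO. Among all tested genes with such a run, 26.5% were lower and 15.1% higher without overlap, beside 20.3% and 20.1% of all tested genes. Their median log2 fold change was -0.13. Between the WT libraries their median difference was -0.25 (library 2 minus library 1), beside 0.00 for all tested genes. Shares at matched GC content were not computed. A pair of genes allows no statement about the run, and the value of Pgls turned with the GC trend.

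**Figure D5:**
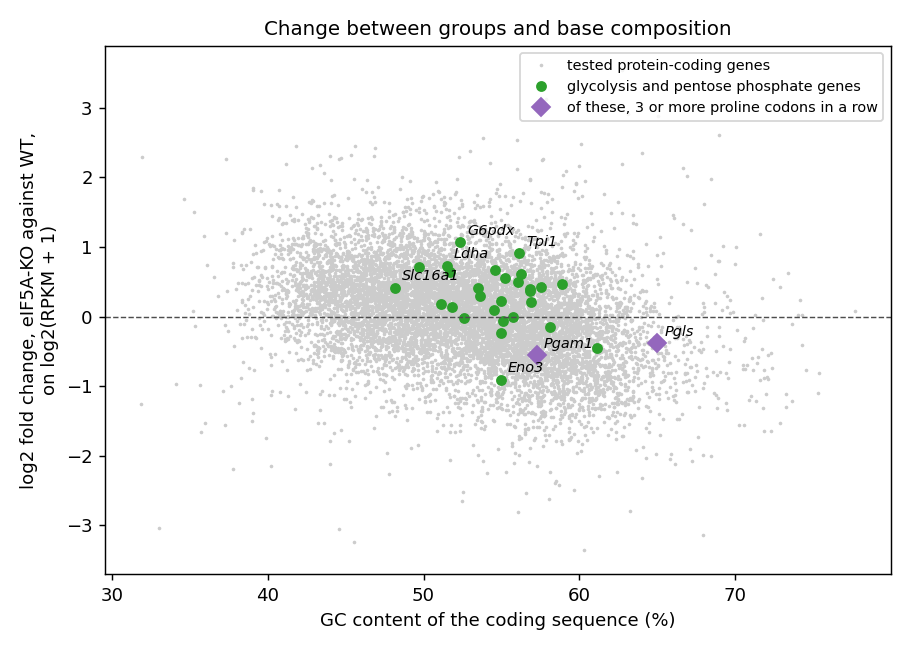
Log2 fold change on log2(RPKM + 1), libraries labelled eIF5A-KO against WT (vertical axis), against the GC content of the coding sequence (horizontal axis, %), for tested protein-coding genes (grey), the members (green) and the 2 members with 3 or more proline codons in a row (diamonds). Both the members and all genes slope down, with Spearman correlations of -0.34 and -0.36, and Pgls lies at 65.0% GC.

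Genes next to the pathway were examined from a list of regulators, glycogen enzymes, mitochondrial pyruvate enzymes and minor isoforms. It had 57 genes in the table, of which 43 were tested. None passed an unadjusted p of 0.05 by limma, and the lowest p was 0.0735. The log2 fold change was above 0 for 28 of the 43, with a median of 0.090. With single libraries left out, the median ranged from -0.032 (without eIF5A-KO library 2) to 0.25 (without WT library 2). In 8 the groups did not overlap with higher values in the libraries labelled eIF5A-KO, and in 5 with lower ones. These were 18.6% and 11.6% of the tested genes of the list, beside 20.1% and 20.3% of all tested genes. Among those with at least 20 reads the highest was Pygl, the liver-type glycogen phosphorylase, with a log2 fold change of 1.18. Hif1a, the oxygen-regulated transcription factor that controls many glycolytic genes, had 22.2 and 22.3 RPKM in WT and 55.0 and 33.2 RPKM in the libraries labelled eIF5A-KO, a log2 fold change of 0.91 (limma, adjusted p = 0.676). Tigar, a fructose bisphosphatase, had a log2 fold change of 0.89. The lowest were Pygm, the muscle glycogen phosphorylase, at -1.32, Pdk1, a kinase that inhibits pyruvate dehydrogenase, at -0.73, and H6pd, the hexose 6-phosphate dehydrogenase of the endoplasmic reticulum, at -0.63. Pygm and Pdk1 did not overlap between groups but rested on 24 and 32 reads. Tigar rested on 28 reads, and its groups overlapped. WT library 1 carried part of these fold changes. Without it the log2 fold change was 0.16 for H6pd, -0.54 for Pygm, 0.18 for Tigar and 0.61 for Pygl. That of Pdk1 was -0.34 without WT library 2, and that of Hif1a was 0.55 without eIF5A-KO library 1.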

How the data were processed

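The authors removed low-quality, adapter, rRNA and tRNA reads, mapped the rest with TopHat2 to the mouse genome (mm10) with an Ensembl annotation, counted genes with HTSeq and deposited RPKM values with a gene length for each gene. Tool versions, strand settings and the treatment of reads with several matches were not given in the sources used here. The samples are titled Polysome-Seq, but the protocol in the labels is RNase I footprinting of ribosomes, and the length of the cycloheximide treatment differs between sources.

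Multiplying RPKM by gene length gave whole reads for 100% of values (tolerance 0.001). The authors' library sizes were 602863 and 471136 for WT and 906990 and 807705 for eIF5A-KO. The test was limma 3.58.1 (R 4.3.3, trend=TRUE) on log2(RPKM + 1), restricted to genes whose mean reached 1 RPKM, with Benjamini-Hochberg adjustment over 11363 genes at 0.05. Fold changes on this scale understate those of weakly read genes. The script was tested on simulated reads whose changed genes differed by more than any member did. That test does not measure the power of the fits reported here. Coding sequences came from GENCODE M21 (GRCm38), whose exons give the deposited gene length of every member. Python 3.11.15 with pandas 2.3.3, numpy 2.4.6 and scipy 1.17.1 computed the shares and exact tests. Because PCR copies can repeat a molecule, intervals, and the floor set at 3 reads, reflect counting error alone.

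Fold change, SE and adjusted p-value were given for the 5 highest and 5 lowest fold changes among tested members with at least 20 reads, and values for all others. Of the neighbouring genes, the 3 highest and 3 lowest were named by the same minimum. The members and all lists were chosen with earlier results of these data known. Alternatives were other pseudocounts, filters, scalings, limma-voom with TMM factors, a replicate block, removal of the GC trend and leaving out each library. The level per kilobase of coding sequence was added after seeing the data. Over all tested genes the replicates differed by more than counting noise, with Spearman correlations of 0.669 (WT) and 0.800 (eIF5A-KO).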

Additional observations from a re-analysis of the deposited data

How the results depend on the processing

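The count of 0 members at the adjusted threshold held under every alternative that was run. Where a library was left out, 1 group had a single library, which was assumed to vary like the 2 of the other group, so these fits say little about stability. The count at an unadjusted p with higher values was 1 (G6pdx) with a pseudocount of 0.1, with every gene above 0, with at least 20 recovered reads, with the same 75th percentile, under quantile normalization, in a fit of protein-coding genes alone, with limma-voom and after removal of the GC trend. In these fits between 2.13% and 4.23% of all tested genes were called higher. Scaling to the same sum gave 9, where 14.4% of all tested genes were called. Leaving out single libraries gave between 0 and 3, with 3 of 30 and 7.12% of all tested genes without WT library 2. The same sum moved the median of all tested genes to 0.81, and that of the members relative to it to 0.55. The count without overlap in the higher direction was then 22 (48.2% of all tested genes), and 14 with quantile normalization (22.8%). In the lower direction it was 2 when the mean had to reach 5 RPKM (21.4% of all tested genes), and 0 after scaling to the same sum (2.84%) or removing the GC trend (18.4%). Leaving out single libraries, which makes overlap rarer by construction, gave between 12 and 18 in the higher direction (18 without WT library 2) and between 6 and 8 in the lower (8 without WT library 1), while 31.7% to 35.9% of all tested genes were then higher and 30.4% to 39.4% lower without overlap.

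Relative to the median of all tested genes, directions turned for Eno2 (0.23) and Slc2a3 (0.010) with a pseudocount of 0.1, for Gapdh (0.18) with the same sum, and for Pfkfb3 (-0.0080), Pgls (0.087), Rpia (0.046) and Eno2 (0.053) with the GC trend removed. The cause was not tested. With single libraries left out, the log2 fold change ranged from -0.051 to 1.38 for Taldo1, -0.015 to 0.44 for Aldoa, -0.13 to 0.93 for Pgd, -0.24 to 0.42 for Hk1, -0.31 to 0.90 for Ldhb, -0.93 to 0.92 for Eno2, -0.47 to 0.43 for Slc2a3 and -0.49 to 0.031 for Gpi1. It ranged from -0.40 to 0.66 for Pfkfb3, -0.27 to 1.19 for Slc16a3, -0.25 to 0.13 for Gapdh, -0.016 to 0.46 for Pfkm and -0.43 to 0.79 for Rpe. Without a turn, it ranged from 0.090 to 0.65 for Slc2a1, 0.28 to 0.93 for Hk2, 0.074 to 1.02 for Eno1, 0.26 to 0.73 for Pkm, 0.15 to 0.65 for Tkt and -0.23 to -0.062 for Rpia. The median ranged from 0.10 to 0.43.

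The differences in shares ranged, in percentage points, from -9.33 to 1.67 for Pfkm, -6.68 to 6.85 for Pfkl, -0.202 to 0.197 for Aldoc, -3.08 to 4.45 for Pgam2, -8.19 to 2.24 for Eno2, -11.5 to 14.2 for Slc16a3 and -1.87 to 7.79 for the pentose phosphate enzymes. They ranged from -23.0 to -10.4 for Eno3, 4.00 to 12.3 for Hk2, -4.12 to -0.542 for Ldhb and 0.371 to 3.21 for Slc2a1. By recovered reads the Pfkl difference was -2.89, against 0.0855 by RPKM.

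A fit with the replicate number as a block called 0 members in either direction and changed no other count of members. At an unadjusted p under 0.05 it called 4.48% of all tested genes lower and 2.80% higher. The differences between replicates 1 and 2 correlated at 0.0575 between the groups, so the numbers were not taken to pair the samples. Depth limits the weakly read members, since Slc2a4, Aldoc and Pgam2 had 5, 3 and 2 reads in all.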
